A study of Rattus norvegicus with 4 samples.

Results

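The genes described here code for neural cell adhesion molecules of the immunoglobulin (Ig) superfamily, and their expression was compared between a low-REST and a high-REST clone of PC12. The 10 genes, chosen by name with earlier results of these data known, are L1cam, Ncam1, Ncam2, Nrcam, Chl1, Nfasc, Cntn1, Cntn2, Cadm3 and Alcam. Of these, 9 were among the 25810 genes listed in the counts, and Chl1 was not analysed here. A total of 13726 genes were tested, 7 of the adhesion genes among them. PC12 is a line of neural cells isolated from a rat pheochromocytoma, a tumour of the chromaffin cells of the adrenal medulla. wtPC12 is a wild-type clone with low levels of REST, a repressor of neuronal genes, and hrPC12 is a clone, formerly called PC12-27, that has high levels of REST spontaneously. The labels name no transgene and no treatment for either clone, and each was sequenced in 2 libraries. Each REST level is therefore represented by 1 clone, and REST cannot be told apart from any other difference between the clones. Nothing states whether the 2 libraries of a clone came from separate cultures, so the p values measure only the spread between libraries, which may be technical.

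Ig adhesion molecules carry Ig-like domains outside the cell and bind copies of themselves, or of each other, on neighbouring membranes. In developing neurons they hold axons together in bundles, guide growth cones and mark out the initial segment and the nodes of the axon. L1cam, Nrcam, Nfasc and Chl1 form the L1 family, whose cytoplasmic tails bind ankyrins and so tie the membrane to the spectrin skeleton. Ncam1 and Ncam2 form the NCAM family, Ncam1 being the main carrier of polysialic acid. Cntn1 and Cntn2 are contactins, which have no cytoplasmic tail and are held in the membrane by a lipid anchor. Cadm3 is a nectin-like molecule, and Alcam (CD166) binds itself and CD6. Chromaffin cells are known to express L1cam and Ncam1.

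Each of the 4 libraries held between 20975027 and 27246502 reads on genes, and the values below are counts scaled by edgeR's TMM factors to a common library size (normalized counts). One read was thus worth about 1 normalized count, and 3 reads, the limit of detection used here, between 2.54 and 3.49. These limits cover counting error only, and in bulk RNA fewer cells of a type and less RNA per cell cannot be told apart. Down- and upregulated are used here for genes with an adjusted p (edgeR, Benjamini-Hochberg over all tested genes) under 0.01 and a log2 FC (hrPC12/wtPC12) below −2 or above 2. Of the 13726 tested genes 5.46% were downregulated and 4.84% upregulated. Rest had 43.0 and 132 normalized counts in wtPC12 and 964 and 915 in hrPC12, giving a log2 FC of 3.42 ± 0.57 (SE) with edgeR (adjusted p = 0.0115). Rest met the criteria of a call, as each analysis set them, in 10 of 15 alternative analyses. Among them were the looser threshold of adjusted p under 0.05, RLE factors (edgeR, adjusted p = 0.00207) and DESeq2 (adjusted p = 1.89e-10). Its log2 FC was 2.80 when wtPC12 replicate 1 was left out and 4.44 when replicate 2 was. Of 11 tested chromaffin markers 7 were downregulated, Chgb, Scg2 and Slc18a1 the most, and their summed normalized counts, over the 12 markers listed, were 1053170 and 892741 in wtPC12 and 47669 and 51691 in hrPC12. Chgb alone made up 687936 and 626776 of these sums in wtPC12 and 288 and 820 in hrPC12. Ddc, Slc18a2, Hand2 and Gata3 did not pass, and Ddc made up 24196 and 20841 of the sums in wtPC12 and 26281 and 27995 in hrPC12. Of 7 tested mesenchymal markers 6 were upregulated, led by Col3a1, Vim and Fn1, with summed counts of 18063 and 16295 in wtPC12 and 95415 and 100159 in hrPC12. The remaining one, Thy1, made up 17929 and 16186 of these sums in wtPC12 and 8532 and 8674 in hrPC12, and was not called (log2 FC −0.99; edgeR, adjusted p = 0.0137). Col3a1 made up 104 and 85.5 of the same sums in wtPC12 and 83801 and 88143 in hrPC12. Of 3 tested glial markers only Pmp22 was upregulated, and Sox10 had no read. The sums of the 7 markers listed were 441 and 391 in wtPC12 and 23014 and 24962 in hrPC12. Pmp22 alone made up 212 and 123 of these sums in wtPC12 and 22614 and 24575 in hrPC12. Fabp7, not tested, had no read in wtPC12 and 118 and 78 in hrPC12. Gfap, also not tested, went the other way, with 10 and 7 reads in wtPC12 and 1 and 0 in hrPC12. Of 3 tested white blood cell markers only Cd14 was upregulated, with sums of the 8 markers listed of 54.7 and 45.3 in wtPC12 and 431 and 511 in hrPC12, while Ptprc, which defines these cells, had at most 1 read in a library. The part of these marker changes in the results below was not tested.

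Promoters of 7 of the 10 genes were matched by symbol in RefSeq (rat assembly GRCr8, not the build of the counts), each from 250 bases before to 50 bases after a transcription start. Those of Cntn2 and Ncam2 are shown because these genes had the lowest log2 FC among the tested genes with a promoter, and that of Alcam because it belongs to a gene with a smaller change. Capitals mark the letters GGACAG, which belong to the right-hand part of RE1, the element that REST binds, or CTGTCC where they lie on the other strand.
Cntn2 (chr13:46527976-46528275, minus strand): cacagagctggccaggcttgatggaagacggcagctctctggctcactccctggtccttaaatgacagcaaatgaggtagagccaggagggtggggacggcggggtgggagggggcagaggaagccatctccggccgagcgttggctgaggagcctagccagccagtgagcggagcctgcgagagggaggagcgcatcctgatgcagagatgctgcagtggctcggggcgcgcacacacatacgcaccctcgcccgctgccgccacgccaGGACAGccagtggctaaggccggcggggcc
Ncam2 (chr11:33591573-33591872, plus strand): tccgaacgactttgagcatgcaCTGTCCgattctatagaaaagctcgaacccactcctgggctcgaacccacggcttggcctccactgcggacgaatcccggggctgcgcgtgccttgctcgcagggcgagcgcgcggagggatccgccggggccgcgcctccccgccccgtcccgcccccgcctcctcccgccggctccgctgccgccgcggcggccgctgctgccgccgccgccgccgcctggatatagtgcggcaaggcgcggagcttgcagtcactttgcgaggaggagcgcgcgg
Alcam (chr11:61805207-61805506, plus strand): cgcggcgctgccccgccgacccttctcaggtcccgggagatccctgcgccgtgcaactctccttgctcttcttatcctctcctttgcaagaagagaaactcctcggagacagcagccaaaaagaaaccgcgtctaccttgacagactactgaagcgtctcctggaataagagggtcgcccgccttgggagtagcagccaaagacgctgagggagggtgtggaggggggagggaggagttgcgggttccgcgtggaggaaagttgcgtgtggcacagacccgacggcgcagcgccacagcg
In the Cntn2 promoter the letters lie from 20 to 25 bases after the first transcribed base, and in that of Ncam2, on the other strand, at positions −228 to −223 from it. GGACAG occurred on either strand in 21.7% of the 33469 rat promoters of the same length, and also in those of Chl1 and of 1 of the 2 Nfasc starts. The left-hand part of RE1, TCAGCACC, was in 1.48% of all promoters and in none of the 8 windows of these genes. Both parts in this order, with 2 bases between them, were in 0.0269% of all promoters and likewise in none of the 8. The Ncam2 window held 44 CpG dinucleotides, those of Alcam 24, Cadm3 20 and Cntn2 19, and those of Nfasc 4 and 6, beside a median of 7 over all promoters. A match describes the letters of the window only.

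All 7 tested genes had lower counts in hrPC12 than in wtPC12, and in each of them both wtPC12 libraries lay above both hrPC12 libraries. Of these, Ncam2 passed the filter on low counts through its wtPC12 libraries alone, so its direction in this and the following counts came with the filter. Among all tested genes the log2 FC was below 0 for 47.7%, both wtPC12 libraries lay above both hrPC12 libraries for 35.6%, and the clones did not overlap, in either direction, for 73.5%. L1cam, Ncam1 and Cntn2 were downregulated, 3 of the 7 beside 5.46% of all tested genes, and no adhesion gene was upregulated, beside 4.84% (10.3% in either direction). With an adjusted p under 0.05 and no limit on the log2 FC, 6 of the 7 were lower, beside 16.3% of all genes, and 0 were higher, beside 16.1%. The unadjusted p from edgeR was under 0.05 on the lower side for all 7, beside 22.7% of all genes. On the higher side it was so for 0 of the 7, beside 3246 of 13726 genes. DESeq2 also called 0 of the 7 higher, beside 877 of the 13726 genes. The median log2 FC of the 7 was −2.13, beside 0.06 over all tested genes, with quartiles of −0.63 and 0.84. Without wtPC12 replicate 2 edgeR called no gene of the whole table, so each edgeR call below needs that library (smallest adjusted p = 0.0134), while DESeq2 still called L1cam and Ncam1.

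**Figure D1:**
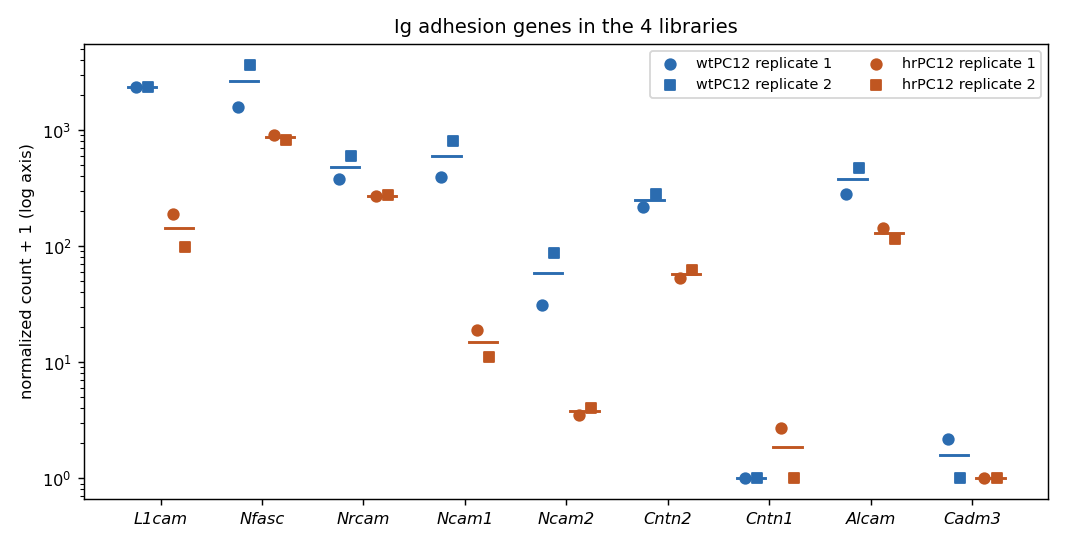
Normalized counts plus 1 (log axis) of the 9 adhesion genes listed in the counts, in each of the 4 libraries, with a line at the mean of each clone. In L1cam and Ncam1 every library of wtPC12 lies more than an order of magnitude above those of hrPC12, while Nrcam has 376 and 591 in wtPC12 and 269 and 272 in hrPC12, and Cntn1 and Cadm3 stay at the bottom of the axis.

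Of the 3 tested genes of the L1 family, L1cam was downregulated, and Nfasc and Nrcam were not called. L1cam, the founding member and a promoter of axon growth and bundling, had 2345 and 2361 normalized counts in the first and second libraries of wtPC12, and 187 and 97.1 in those of hrPC12. The wtPC12 libraries were nearly equal, while hrPC12 replicate 1 held 1.93 times as much as replicate 2, and both were far below wtPC12. The means were 2353 ± 11.2 and 142 ± 63.6 (SD over 2 libraries each), 16.5-fold lower in hrPC12, with a log2 FC of −4.04 ± 0.38 (SE; edgeR, adjusted p = 0.00213). Without wtPC12 replicate 2 the log2 FC stayed at −4.04 and the adjusted p was 0.0287 (edgeR), which does not pass. What was left in hrPC12 was 6.04% of the wtPC12 mean.

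Nfasc codes for neurofascin, which gathers sodium channels and other proteins at the axon initial segment and at nodes. It had 1590 and 3662 normalized counts in wtPC12 and 912 and 825 in hrPC12. The hrPC12 libraries were close together, and wtPC12 replicate 2 held 2.30 times as much as replicate 1, a spread wider than the gap between wtPC12 replicate 1 and hrPC12. The means were 2626 ± 1465 and 868 ± 61.6 (SD over 2 libraries each), and the log2 FC of −1.60 ± 0.42 (SE; edgeR, adjusted p = 0.0412) passed neither threshold of a call. Leaving out wtPC12 replicate 2 gave −0.87, and leaving out replicate 1 gave −2.11, when Nfasc passed both (edgeR, adjusted p = 0.00337).

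Nrcam, a partner of contactins and neuropilins in axon guidance, had 376 and 591 normalized counts in wtPC12 and 269 and 272 in hrPC12. It had the log2 FC nearest to 0 among the 7, and the clones did not overlap. The log2 FC was −0.84 ± 0.31 (SE; edgeR, adjusted p = 0.0982, unadjusted p = 0.0436), and −0.47 without wtPC12 replicate 2.

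The ratio of L1cam to Nrcam reads within a library, which does not depend on the scaling, was 6.24 and 3.99 in wtPC12 and 0.695 and 0.357 in hrPC12. That of L1cam to Nfasc reads was 1.48 and 0.645 in wtPC12 and 0.205 and 0.118 in hrPC12. In both ratios the clones did not overlap, and the change in the mean log2 ratio was −3.33 for the former and −2.65 for the latter. An exact permutation test of 2 libraries against 2 (two-sided) gave p = 0.333 for each, which is the smallest it can give. Of the reads on the 9 adhesion genes together, L1cam took 44.8% and 28.6% in wtPC12 and 11.8% and 7.02% in hrPC12, while Nfasc took 30.4% and 44.4% in wtPC12 and 57.6% and 59.6% in hrPC12. Such shares also depend on transcript length, which was not used here, and are compared between libraries only. Reads on the 9 genes made up 21.5 and 36.4 of every 100000 reads on genes in wtPC12 and 6.87 and 6.32 in hrPC12.

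Both genes of the NCAM family were low in hrPC12. Ncam1, which mediates adhesion between neurons and signals through Fyn and the FGF receptor, had 394 and 800.4 normalized counts in wtPC12 and 17.8 and 10.1 in hrPC12. The second wtPC12 library held 2.03 times as much as the first, and both hrPC12 libraries were more than an order of magnitude below either. Ncam1 fell 42.1-fold, with means of 597 ± 287 and 13.9 ± 5.42 (SD over 2 libraries each) and a log2 FC of −5.39 ± 0.56 (SE; edgeR, adjusted p = 0.00285), the lowest of the 7. Without wtPC12 replicate 2 it was −4.79 (edgeR, adjusted p = 0.0220), which does not pass. The hrPC12 libraries kept 21 and 10 reads, 2.33% of the wtPC12 mean after scaling.

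Ncam2, known from sorting of olfactory axons, was scarce in both clones, with 26 and 83 reads in wtPC12 and 3 and 3 in hrPC12. It had 30.2 and 85.5 normalized counts in wtPC12, a 2.83-fold spread, and 2.54 and 3.04 in hrPC12, at the limit of detection. Pooled over the libraries of a clone and scaled by their sizes, the ratio of wtPC12 to hrPC12 was 21.5, with a 95% counting interval (exact binomial) from 9.58 to 60.0. The fitted log2 FC was −4.33 ± 0.77 (SE; edgeR, adjusted p = 0.0141), which does not pass 0.01. Ncam2 passed the filter on low counts through its wtPC12 libraries alone. In edgeR the adjusted p also stayed above 0.01 with the filterByExpr filter (0.0121), the legacy option off (0.0164), a prior count of 2 (0.0141) and glmTreat (0.0863). Both thresholds were passed under edgeR's RLE factors (adjusted p = 0.00368), unscaled library totals (0.00607), no filter (0.00284) and in DESeq2 (0.000203). They were also passed in edgeR without wtPC12 replicate 1 (0.00626), hrPC12 replicate 1 (0.000363) or hrPC12 replicate 2 (0.00975), and not without wtPC12 replicate 2 (log2 FC −3.39, adjusted p = 0.0382).

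Of the contactins, Cntn2 was expressed and Cntn1 was not detectable. Cntn2 (TAG-1), which lies on early growing axons and pairs with L1 family molecules and Caspr proteins, had 218 and 278 normalized counts in wtPC12 and 51.6 and 61.7 in hrPC12. The libraries of each clone were close to each other and the clones did not overlap. Its 4.37-fold fall, between means of 248 ± 42.8 and 56.7 ± 7.13 (SD over 2 libraries each), gave a log2 FC of −2.13 ± 0.33 (SE; edgeR, adjusted p = 0.00918). Both values lie close to the thresholds. The Cntn2 promoter printed above is one of the 4 windows of these genes with GGACAG. With any 1 of the 4 libraries left out the call was lost, with log2 FC from −2.32 to −1.94 and an adjusted p from 0.0111 to 0.0341 (edgeR).

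Cntn1, a partner of Caspr at the paranodes of myelinated axons, had 2 reads in hrPC12 replicate 1 and 0 in the other libraries. Cadm3, which binds other nectin-like molecules at contacts between axons and glia, had 1 read in wtPC12 replicate 1 and 0 elsewhere. Both were below the filter and were not tested, and a difference between the clones was not detectable at this depth.

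Alcam, which takes part in axon bundling and in the immune synapse, had 280.3 and 473 normalized counts in wtPC12 and 142 and 115 in hrPC12. Both wtPC12 libraries were above both of hrPC12, and wtPC12 replicate 2 held 1.69 times as much as replicate 1. From means of 377 ± 136 and 129 ± 19.0 (SD over 2 libraries each) the log2 FC was −1.55 ± 0.37 (SE; edgeR, adjusted p = 0.0315), and Alcam passed neither threshold of a call. Leaving out wtPC12 replicate 1 gave −1.91, and leaving out replicate 2 gave −1.12.

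**Figure D2:**
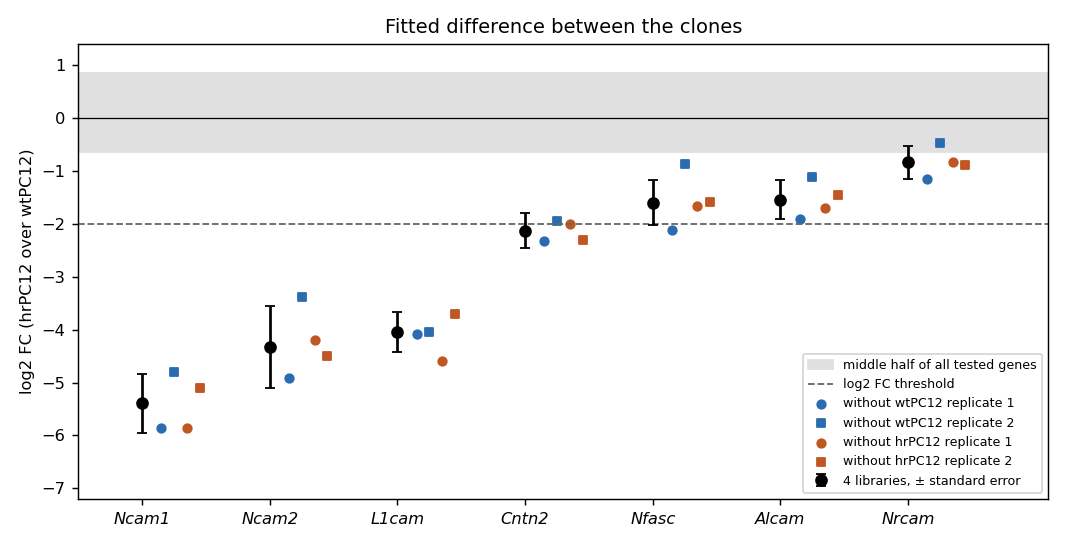
Fitted log2 FC (hrPC12/wtPC12) of the 7 tested adhesion genes with its standard error (black), and the value with each library left out (coloured). The black points lie below 0 in every gene, from −5.39 in Ncam1 to −0.84 in Nrcam, and the value without wtPC12 replicate 2 (blue squares) is the nearest to 0 in 6 of the genes, L1cam being the exception.

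The order of the fitted log2 FC was Ncam1, Ncam2, L1cam, Cntn2, Nfasc, Alcam and Nrcam, from the lowest up. Ncam2 and L1cam (−4.33 and −4.04) and Nfasc and Alcam (−1.60 and −1.55) lay closer to each other than their standard errors. Between L1cam and Cntn2 the gap was from −4.04 to −2.13, with standard errors of 0.38 and 0.33. These gaps between genes were not tested.

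The 2 wtPC12 libraries did not hold these genes at the same level. Replicate 2 was above replicate 1 in all 7 tested genes, by 1.01-fold in L1cam, 1.28-fold in Cntn2, 1.57-fold in Nrcam, 1.69-fold in Alcam, 2.03-fold in Ncam1, 2.30-fold in Nfasc and 2.83-fold in Ncam2. Replicate 2 was above replicate 1 in 47.1% of all tested genes and by more than 1.5-fold in 20.1%, beside 5 of the 7 here. The hrPC12 libraries differed by more than 1.5-fold only in L1cam and Ncam1, replicate 1 being the higher in both, and in 22.9% of all tested genes replicate 1 was higher by as much.

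**Figure D3:**
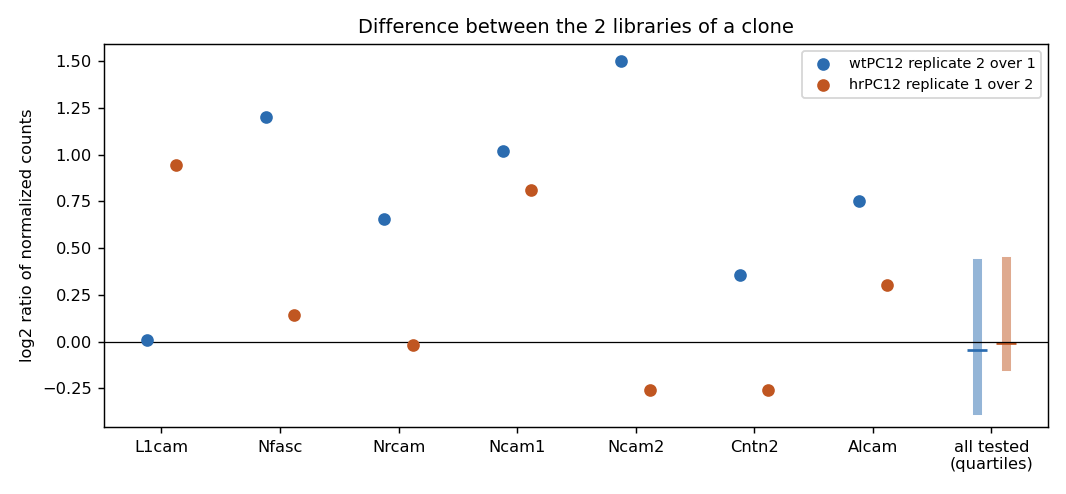
Log2 ratio of normalized counts between the 2 libraries of a clone, for the 7 tested adhesion genes, with the median and quartiles of all tested genes at the right. The wtPC12 ratio (blue) is above 0 in all 7 genes, lowest in L1cam (0.01) and highest in Ncam2, and the hrPC12 ratio (orange) stands out in L1cam (0.95) and Ncam1 (0.81).

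The order of genes along the assembly GRCr8, where symbols gave a place to 65.2% of the tested genes, was used to compare each adhesion gene with the 5 tested genes on either side. Around L1cam all 10 neighbours had more counts in hrPC12 replicate 1 than in replicate 2, with a median log2 ratio of 0.83, beside 0.95 in L1cam itself. Replicate 1 was the higher in 49.2% of all tested genes, and the log2 ratio over all of them had an upper quartile of 0.445. In 22.9% of all tested genes replicate 1 was higher by more than 1.5-fold, so differences above 1.5-fold were not limited to this region. None of the 10 neighbours of L1cam was up- or downregulated, and their median log2 FC was 1.20, beside −4.04 in L1cam. Without hrPC12 replicate 1 the log2 FC of L1cam was −4.60, and without replicate 2 it was −3.70. The higher count of Ncam1 in hrPC12 replicate 1, from 21 reads against 10, had no such surroundings, and 2 of its 10 neighbours were higher in that library. The part of this difference between libraries in the fall of L1cam was not tested, and L1cam was lower than in wtPC12 in each of the 2 hrPC12 libraries.

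Cntn2 and Nfasc are next to each other among the placed genes. Of the 10 neighbours of Nfasc 3 were downregulated, Cntn2 being one, beside 5.46% of all tested genes. None was upregulated, beside 4.84% of all tested genes, and the median log2 FC was −1.05. Lrrn2, which lies on the other side of Nfasc and was named after its values were seen, was downregulated (log2 FC −2.24 ± 0.25, SE). Around Ncam1, too, 3 of 10 neighbours were downregulated, with a median log2 FC of −0.57, and none was upregulated. Around Ncam2, Nrcam and Alcam no neighbour was downregulated, and the medians were 0.77, 0.19 and 0.07. Upregulated were 1 of the 10 neighbours of Ncam2, 2 of the 10 of Nrcam and none of those of Alcam. Ncam1, Ncam2, L1cam and Alcam had lower log2 FC than any of their own neighbours.

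**Figure D4:**
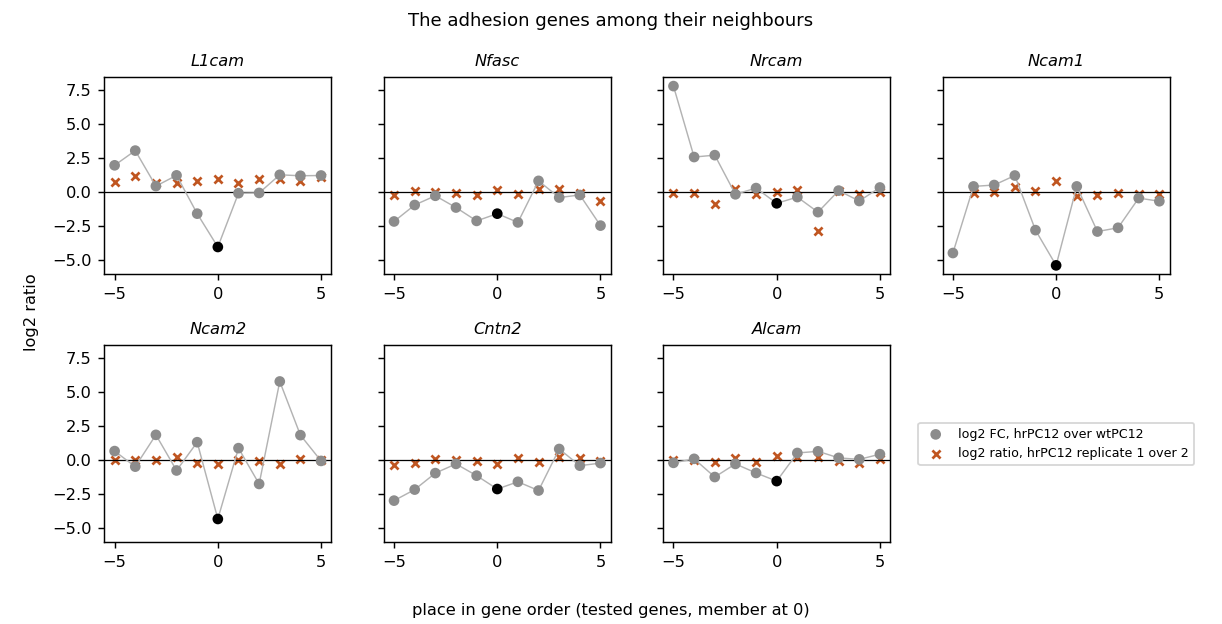
Log2 FC (hrPC12/wtPC12) of each tested adhesion gene (black) and of the 5 tested genes on either side (grey), in gene order, with the log2 ratio between the first and second hrPC12 libraries (crosses). The crosses lie above 0 throughout the panel of L1cam, and the black points of L1cam, Ncam1 and Ncam2 lie below all grey points around them.

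Ig adhesion genes outside the 10 were read from a list written from general knowledge, with earlier results of these data known. Of its 38 genes 33 were listed and 19 tested. Of the latter, 6 were downregulated, 1 was upregulated and 12 were not called, with a median log2 FC of −1.49. Beside this and the lists below, 5.46% of all tested genes were downregulated and 4.84% upregulated. Sdk2, a sidekick protein of synaptic layers, averaged 419 ± 327 normalized counts (SD over 2 libraries) in wtPC12 and had 1 read in each hrPC12 library, a ratio of 469 with a 95% counting interval from 129.5 to 3882. The nectin gene Pvrl1 averaged 132 ± 63.6 in wtPC12 and had 0 and 2 reads in hrPC12. Bcam, a laminin receptor, averaged 4839 ± 1094 in wtPC12 and 42.4 ± 0.12 in hrPC12 (log2 FC −6.83 ± 0.28, SE). Igsf9, Mcam and Cadm1, the last a close relative of Cadm3, were the other 3 downregulated genes, with log2 FC of −6.21, −3.35 and −2.50.

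In the other direction Kirrel, a nephrin-like molecule, rose, averaging 62.3 ± 50.3 normalized counts in wtPC12 and 1034 ± 10.1 in hrPC12 (log2 FC 4.04 ± 0.63, SE; edgeR, adjusted p = 0.00985). Lsamp, which was named after its values were seen, had no read in wtPC12 and 70 and 61 in hrPC12, so that it was at least 18.4-fold higher, against 3 reads per wtPC12 library. It was left out of the test by the filter, and had an adjusted p of 0.00047 in edgeR without the filter. Of 7 tested Ig adhesion genes of blood and vessel cells none was downregulated and Icam1 was upregulated (log2 FC 2.05 ± 0.30, SE), with a median log2 FC of 1.07. Bcam and Mcam, both downregulated, were counted in the list before, and the counts and medians of both lists depend on how genes were placed.

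Genes whose products link the L1 family and the Cadm proteins to the cell skeleton went both ways. Of 15 tested genes of ankyrins, spectrins and related linkers 3 were downregulated and 2 upregulated, beside 5.46% and 4.84% of all tested genes. Their median log2 FC was −0.51. Ank3, which codes for ankyrin-G, the ankyrin of the axon initial segment that binds neurofascin, averaged 440.4 ± 177 normalized counts in wtPC12 and 4510.5 ± 49.1 in hrPC12 (log2 FC 3.35 ± 0.33, SE; edgeR, adjusted p = 0.00247). Ank1, the ankyrin of red cells and muscle, had 12.8 and 9.27 in wtPC12 and 211 and 217 in hrPC12 and was upregulated, while Ank2, the ankyrin of axon shafts, had means of 671 and 165 and was not called (log2 FC −2.03; edgeR, adjusted p = 0.0492). Sptbn4, the beta spectrin of initial segments and nodes, averaged 2683 ± 751 in wtPC12 and 93.8 ± 3.32 in hrPC12 (log2 FC −4.84 ± 0.30, SE). The scaffold genes Mpp3 and Mpp2 had log2 FC of −2.73 and −2.50 and were downregulated.

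Membrane and matrix partners were tested for 17 genes, of which 3 were downregulated and none upregulated, beside 5.46% and 4.84% of all tested genes. Their median log2 FC was −0.56. Ncan (neurocan), a proteoglycan that binds L1cam and Ncam1, averaged 229 ± 66.9 normalized counts in wtPC12 and had 1 read in hrPC12 over both libraries. Tnr (tenascin-R), a matrix ligand of contactins, averaged 1354 ± 1178 in wtPC12 and 4.39 ± 3.81 in hrPC12. Cd24, a small mucin that associates with L1cam, averaged 60191 ± 5002 and 14334 ± 1199 (log2 FC −2.07 ± 0.21, SE). Cntnap1, which codes for Caspr, was not called (log2 FC −0.84 ± 0.21, SE; edgeR, adjusted p = 0.0351).

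Of 7 enzymes that make polysialic acid, the HNK-1 epitope or related glycans, 5 were listed in the counts and 2 were tested. St8sia4 and B3gat2 were not listed under these names, and St8sia2 and Fut9 had no read. St8sia3, a sialyltransferase, averaged 695 ± 425 normalized counts in wtPC12 and 40.5 ± 1.43 in hrPC12 (log2 FC −4.10 ± 0.55, SE), and Chst10, the HNK-1 sulfotransferase, was not called (log2 FC −1.23 ± 0.22, SE). Sheddases are proteases that cut adhesion molecules from the cell surface. Of 6 genes of sheddases and related proteins none was downregulated, and 1, the inhibitor Timp3, was upregulated, with 3 reads over both wtPC12 libraries and 194 and 247 normalized counts in hrPC12. The sheddase genes Adam10 (log2 FC 0.06), Adam17 (1.69) and Bace1 (−1.16) were not called.

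**Figure D5:**
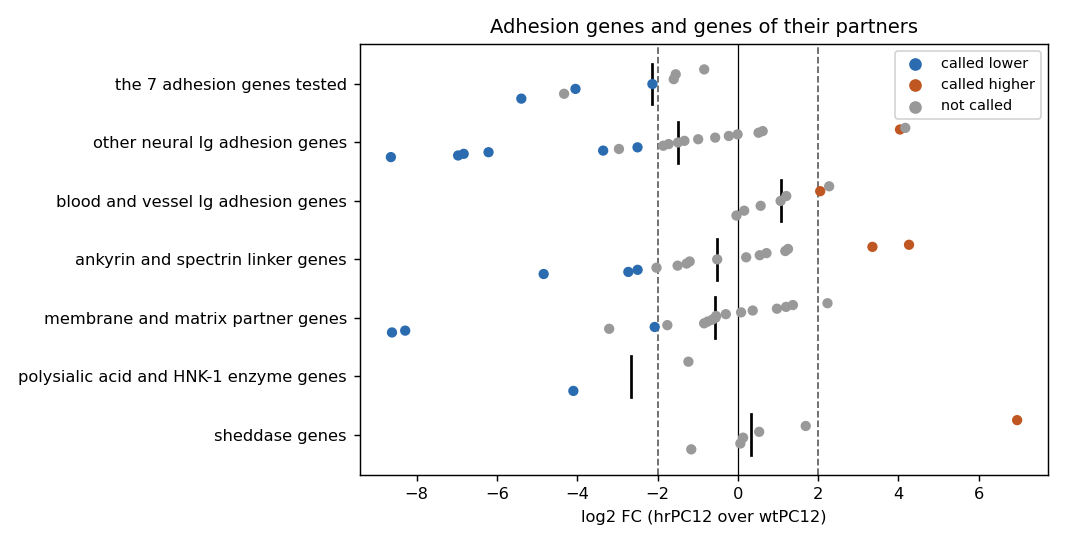
Log2 FC (hrPC12/wtPC12) of the tested genes of each list, 1 point per gene, with a bar at the median of the list and dashed lines at the threshold of 2 in either direction. The medians run from −2.66 in the polysialic acid and HNK-1 enzymes, which are 2 genes, and −2.13 in the adhesion genes described first, to 1.07 in the blood and vessel list.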

How the data were processed

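RNA of 2 wtPC12 and 2 hrPC12 libraries (Illumina TruSeq v2, HiSeq, total RNA) was analysed. Reads were mapped by the authors with TopHat2 2.0.4 on the rat build rn4 and, per the submitters' processing notes, counted per gene with HTSeq 0.5.3. The deposited values are raw read counts per gene, with no normalization or filter. A further table with the authors' DESeq comparison (means, fold changes and p values) was not used. Reads on genes made up between 37.9% and 41.3% of each library's total, and the rest, mainly reads outside genes, was left out. The kit does not mark strand, so reads from antisense genes cannot be told apart.

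TMM factors from edgeR scaled the counts. Genes with a mean under 5 normalized counts, or with no read in one clone, were removed, as in the study, which used DESeq. The clones were compared with edgeR 4.0.16 (glmQLFit with the legacy option on, glmQLFTest) in R 4.3.3, with Benjamini-Hochberg adjustment over all 13726 genes. The standard error is the log2 FC divided by the square root of the F statistic. The thresholds of the study were kept (adjusted p 0.01, log2 FC 2). Alternatives were RLE factors, library totals, 2 other filters, DESeq2 1.42.0, glmTreat, other thresholds, a prior count of 2 and each library left out.

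The members and lists were chosen with earlier results of these data known. Genes named are the 10 members, Rest, and from each list the 3 lowest and 3 highest log2 FC among called genes whose higher clone averaged 100 normalized counts or more. The comparison with neighbouring genes and the motif search were chosen after earlier results were seen. Other genes, such as those of a list that were not called, were named after their values were seen. Counts per coding length were planned and not computed, as no protein sequences were used here.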

Additional observations from a re-analysis of the deposited data

How the results depend on the processing

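All 7 tested adhesion genes kept a negative log2 FC under every one of the 15 alternatives. The number downregulated, 3, lay between 2 (glmTreat, L1cam and Ncam1) and 4 with all libraries, and between 0 and 4 with each library left out in turn. The value of 0 was that without wtPC12 replicate 2, when edgeR called 0 genes in the whole table (smallest adjusted p = 0.0134), 6 of the 7 had an unadjusted p under 0.05, and DESeq2, added after seeing the data, called L1cam and Ncam1. A clone with 1 library is there assumed to vary like the other. All genes called lower then ranged from 0 to 859, all genes called higher from 0 to 962, and those of the 6 partner and adhesion lists from 0 to 14 lower and from 0 to 5 higher. Beside 749 lower and 665 higher with the settings of the text, glmTreat gave 353 and 321, every gene with a read gave 1127 higher, and an adjusted p under 0.05 gave 1088 higher. In the lists, 13 lower and 5 higher became 6 and 2 with glmTreat, and 8 were higher at 0.05. Both glmTreat and the 0.05 threshold change the counts by their construction. For every gene with a read the cause was not tested. No paired analysis was possible because the library names of the clones share only 1 replicate label. The depth limits Cntn1, Cadm3 and Ncam2, with at most 3 reads in each hrPC12 library.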
